A study of Mus musculus with 6 samples.

Results

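The genes described are those of the lysyl oxidases and of the transglutaminases measured in mouse aortic valves, the enzymes that join extracellular matrix proteins by covalent bonds. The members are the rows of the gene table whose symbol is *Lox*, *Loxl1*, *Loxl2*, *Loxl3*, *Loxl4*, *Tgm2* or *F13a1*, which are 7 of 46983 genes, with 5 lysyl oxidases and 2 transglutaminases. The aortic valves came from wild type C57BL/6J mice, either on postnatal day 2 (PND2) or 4 months old, and were sequenced as 3 RNA libraries for each age, without any treatment. Each library pooled the valves of 5 to 6 mice, so that its value is an average over a pool and not that of 1 animal. The study compared the ages to describe how gene expression differs between the growing valve and the adult one.

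Lysyl oxidases are secreted copper enzymes that oxidize lysine side chains of collagen and elastin to aldehydes, which then condense into cross-links between the fibers. LOX and LOXL1 carry a propeptide that is removed outside the cell, and LOXL2, LOXL3 and LOXL4 carry scavenger receptor domains in front of the shared catalytic domain. Transglutaminases join a glutamine of one protein to a lysine of another in a calcium-dependent reaction. Valve leaflets are built of layers rich in collagen, proteoglycan and elastin, and bear load with every heartbeat.

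*Lox* and *Loxl2*, which were among the most abundant members at PND2, were 5.30-fold and 3.20-fold lower at 4 months. *Loxl3*, *Loxl4* and *F13a1* were 1.68-fold, 2.87-fold and 2.59-fold higher, and *Tgm2* was 1.36-fold higher with a test result that most alternative settings did not keep. *Loxl1* was at 227 ± 57.7 RPKM (SD, n = 3) at PND2 and 182 ± 30.3 RPKM at 4 months, a difference that did not pass the test. *Loxl1* held 53.5% of the summed lysyl oxidase RPKM at 4 months, against 29.7% at PND2.

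RPKM scale reads by exonic length and library total. Levels of different genes, their sums and shares can be compared only roughly, since the annotated exons of a gene are covered unevenly. *Loxl1*, at a mean of 227 RPKM at PND2, had 114 RPKM on its last exon entry and 699 RPKM on that of 116 bases. Library totals were between 23810507 and 38994657 reads, and 100% of the gene values above 0 corresponded to whole reads. Genes were compared with limma on log2(RPKM + 0.1), 2-sided, with Benjamini-Hochberg adjustment over the 25903 genes tested, and a gene was called at an adjusted p under 0.05. On this scale fold changes of genes with low RPKM are understated. Over all genes tested the log2 fold change (4 months minus PND2) had a median of -0.14, which moved to -0.02 when each library was scaled by its median, against which the values below may be read. The libraries are labelled biological replicates, and within an age they correlated at 0.961 to 0.970 across genes, which are not independent replicates. Marker genes of cell types were summed as well. The summed RPKM of 6 smooth muscle genes was 7178 to 8268 at PND2 and 16547 to 27656 at 4 months. All 6 were called higher. The sum of 8 cardiomyocyte genes was 13565 to 14822 at PND2 and 5981 to 9084 at 4 months, with 2 called lower. The sum of 7 adipocyte genes was 63.8 to 147 at PND2 and 326 to 1427 at 4 months, with 6 called higher, and replicate 2 of 4 months had the 1427 against 344 and 326 in replicates 1 and 3. In such bulk samples fewer cells of a type and less RNA per cell cannot be told apart.

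*Loxl2*, *Loxl3* and *Loxl4* share an exon of 112 bases that encodes part of the catalytic domain. Of the coding exons of equal length in all 3 genes it is the last in 5′ to 3′ order, and it is shown since the genes changed in different directions although their coding exons are built alike. The sequences are those of the GENCODE annotation of the mouse genome (GRCm38, the assembly of mm10), 5′ to 3′ on the strand of the gene, and capitals mark the positions at which the 3 genes have the same base. The exons lie at chr14:69692314-69692425, chr6:83050558-83050669 and chr19:42597498-42597609.
Loxl2: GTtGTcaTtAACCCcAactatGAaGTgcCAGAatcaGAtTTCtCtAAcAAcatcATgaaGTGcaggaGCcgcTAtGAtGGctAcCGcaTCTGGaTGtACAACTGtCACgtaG
Loxl3: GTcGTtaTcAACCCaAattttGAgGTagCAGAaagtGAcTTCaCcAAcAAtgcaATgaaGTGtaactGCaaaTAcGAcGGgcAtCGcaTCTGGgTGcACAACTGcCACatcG
Loxl4: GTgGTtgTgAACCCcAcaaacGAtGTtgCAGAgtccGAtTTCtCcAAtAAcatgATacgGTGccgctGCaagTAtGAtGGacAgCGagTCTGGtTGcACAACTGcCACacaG
All 3 genes had the same base at 63 of 112 positions (56.2%), and pairs of them were identical at 66.1 to 68.8% of the positions. On this exon *Loxl2* had 391, 508 and 402 RPKM at PND2 and 85.1, 155 and 169 RPKM at 4 months, in the order of replicates 1 to 3. The same exon of *Loxl3* had 42.4, 42.1 and 35.4 RPKM at PND2 and 60.7, 53.2 and 66.9 RPKM at 4 months. *Loxl4* had 0.687, 0 and 0.915 RPKM there at PND2 and 2.15, 4.50 and 6.48 RPKM at 4 months. Values of the ages did not overlap in any of the 3 genes, which held for 42.6% of all exons tested, and the exon was called lower for *Loxl2* and higher for both others. The *Loxl4* values at PND2 stand for 3, 0 and 3 reads.

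*Tgm2* and *F13a1* share an exon of 104 bases in the same way, at chr2:158128639-158128742 and chr13:36918532-36918635, which encodes the surroundings of the catalytic histidine. It is shown as the stretch in which the 2 enzymes were most alike among the coding exons of equal length. Capitals mark positions with the same base in both genes.
Tgm2: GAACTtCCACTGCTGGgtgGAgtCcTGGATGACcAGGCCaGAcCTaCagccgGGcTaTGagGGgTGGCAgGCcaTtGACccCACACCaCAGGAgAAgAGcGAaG
F13a1: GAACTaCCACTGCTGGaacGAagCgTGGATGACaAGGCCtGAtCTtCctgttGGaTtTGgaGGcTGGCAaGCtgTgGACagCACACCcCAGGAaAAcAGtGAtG
The 2 genes were identical at 72 of 104 positions (69.2%), against 36.0 to 56.3% in 3 other exons of equal length. *Tgm2* had 279, 320 and 369 RPKM on this exon at PND2 and 507, 391 and 417 RPKM at 4 months. For *F13a1* the values were 21.5, 13.9 and 21.4 RPKM at PND2 and 62.3, 47.7 and 40.9 RPKM at 4 months. Values of the ages did not overlap on the exon in either gene, which held for 42.6% of all exons tested. The exon was called higher for *F13a1* (limma adjusted p = 0.00576) and was not called for *Tgm2* (limma adjusted p = 0.0776). The longest run of identical bases between transcripts of any 2 members was 32 bases, between *Lox* and *Loxl1*.

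The members lie on different chromosomes of mm10. Among the lysyl oxidases, *Lox* (ENSMUSG00000024529) is at chr18:52516069-52529867 on the minus strand, *Loxl1* (ENSMUSG00000032334) at chr9:58287723-58313212 on the minus strand and *Loxl2* (ENSMUSG00000034205) at chr14:69609068-69695834 on the plus strand. *Loxl3* (ENSMUSG00000000693) is at chr6:83034173-83052562 on the plus strand and *Loxl4* (ENSMUSG00000025185) at chr19:42593982-42612813 on the minus strand. Of the transglutaminases, *Tgm2* (ENSMUSG00000037820) is at chr2:158116402-158146436 and *F13a1* (ENSMUSG00000039109) at chr13:36867178-37050244, both on the minus strand.

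At PND2 the order of mean RPKM was *Lox* (278), *Loxl2* (235), *Loxl1* (227), *Tgm2* (150), *F13a1* (22.8), *Loxl3* (17.2) and *Loxl4* (0.951). The ranges of *Lox*, *Loxl2* and *Loxl1* overlapped, and so did those of *Loxl1* and *Tgm2*, whereas *F13a1*, *Loxl3* and *Loxl4* were each apart from their neighbors. At 4 months the order was *Tgm2* (203), *Loxl1* (182), *Loxl2* (73.6), *F13a1* (59.1), *Lox* (52.5), *Loxl3* (29.0) and *Loxl4* (2.73). Here *Tgm2* overlapped *Loxl1*, and *Loxl2*, *F13a1* and *Lox* overlapped each other, while *Loxl3* and *Loxl4* stood below all of these.

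**Figure D1:**
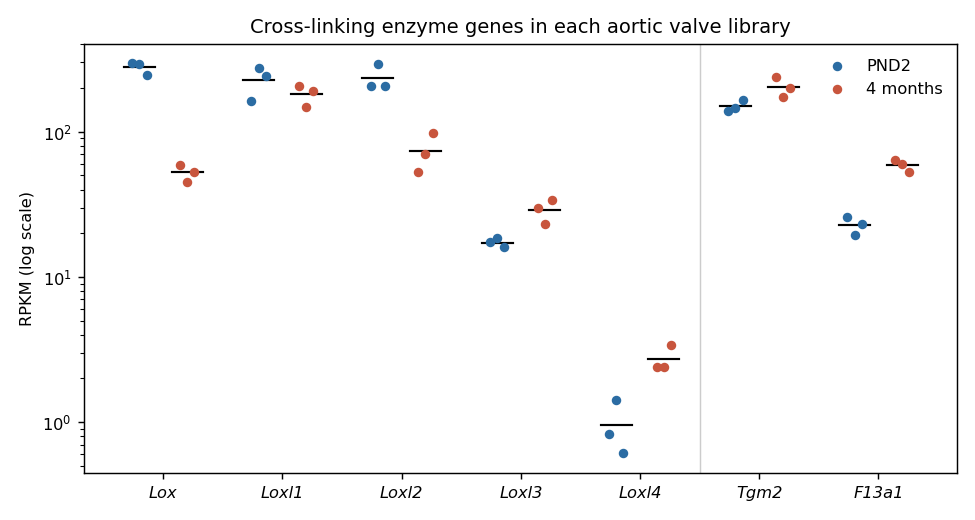
RPKM (log scale) of the 7 members in each library, with 1 point per library, PND2 in blue and 4 months in red, and a bar at the mean of the 3 libraries. Points of the ages overlap only for *Loxl1*, and the *Lox* points lie between 245 and 295 RPKM at PND2 and between 45.3 and 59.4 RPKM at 4 months.

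Of the 7 members, 6 were called, with 2 lower and 4 higher at 4 months. Among all genes tested 35.8% were called, with 21.1% lower and 14.7% higher. With a fold change over 2 as a further condition 4 of the members passed, *Lox*, *Loxl2*, *Loxl4* and *F13a1*, against 17.2% of all genes. Values of the ages did not overlap in 6 of 7 members, which held for 50.0% of all genes. A per-gene unequal-variance test, the kind the study used, was run on log2(RPKM + 0.1) without the study's read minimum and floor. Under it *Lox* and *F13a1* were the only members with an adjusted p under 0.05. The study itself, at a false discovery rate under 0.05 and a fold change over 2, lists both *Lox* and *Loxl2* as downregulated at 4 months.

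*Lox*, the founding lysyl oxidase, which acts on both elastin and fibrillar collagen and is needed for a sound arterial wall, had 295, 294 and 245 RPKM in the PND2 libraries. At 4 months it had 59.4, 45.3 and 52.9 RPKM. All 3 adult libraries were thus far below every neonatal one. Mean levels were 278 ± 28.7 RPKM at PND2 and 52.5 ± 7.04 RPKM at 4 months (SD, n = 3), and the log2 fold change was -2.41 (SE 0.13, 95% interval -2.71 to -2.10, limma adjusted p = 4.65e-05). Only 1.73% of the genes tested had a lower log2 fold change. Leaving out 1 library at a time gave log2 fold changes from -2.50 to -2.30.

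*Loxl1*, whose product works with fibulin-5 in the upkeep of elastic fibers, had 163, 274 and 243 RPKM at PND2 and 206, 148 and 192 RPKM at 4 months. The lowest neonatal library lay below 2 of the adult ones, and the ages overlapped. The log2 fold change was -0.30 (SE 0.22, 95% interval -0.80 to 0.21, limma adjusted p = 0.326), and it was -0.17 after median scaling. Without replicate 1 of PND2 the log2 fold change was -0.52 (adjusted p = 0.0530), without replicate 2 of PND2 it was -0.14 (0.664) and without replicate 2 of 4 months -0.15 (0.646), so that its size depended on single libraries and it was called in none of these fits.

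*Loxl2*, which cross-links collagen IV of basement membranes as well as fibrillar collagen, had 207, 293 and 206 RPKM at PND2. The 4-month libraries had 53.0, 69.8 and 97.9 RPKM. Every adult value was under the lowest neonatal value, although the adult libraries differed among themselves more than for *Lox*. Means were 235 ± 50.1 and 73.6 ± 22.7 RPKM, with a log2 fold change of -1.70 (SE 0.24, 95% interval -2.26 to -1.14, limma adjusted p = 0.00194). An antisense gene, *Gm27177*, overlaps *Loxl2*, with 27.9 to 36.3 RPKM at PND2 and 19.3 to 20.8 RPKM at 4 months. Whether the counting used strand is not given in the sources used here, so reads of overlapping genes on opposite strands cannot be told apart.

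*Loxl3*, a collagen and elastin cross-linker known from palate and spine development, had 17.3, 18.5 and 16.0 RPKM at PND2 and 29.8, 23.3 and 34.0 RPKM at 4 months. All adult libraries were above all neonatal ones. Its log2 fold change was 0.73 (SE 0.15, 95% interval 0.38 to 1.09, limma adjusted p = 0.00906). The last exon of *Loxl3* overlaps *Htra2* on the other strand, which was at 24.9 to 32.1 RPKM at PND2 and 25.4 to 30.8 RPKM at 4 months.

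*Loxl4*, the scarcest member, had 0.822, 1.42 and 0.608 RPKM at PND2 and 2.38, 2.41 and 3.39 RPKM at 4 months. These values stand for 135, 183 and 75 reads at PND2 and 375, 242 and 413 reads at 4 months. No neonatal library reached the lowest adult one. The log2 fold change was 1.48 (SE 0.34, 95% interval 0.70 to 2.27, limma adjusted p = 0.0130). Without replicate 3 of 4 months it was 1.32 with an adjusted p of 0.0518.

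*Tgm2*, the widely expressed transglutaminase that also binds GTP and fibronectin, had 139, 146 and 165 RPKM at PND2. At 4 months the libraries had 238, 173 and 199 RPKM. The ages did not overlap, but the highest neonatal and the lowest adult library were close. The log2 fold change was 0.43 (SE 0.14, 95% interval 0.11 to 0.75, limma adjusted p = 0.0452). Leaving out 1 library at a time ended the call in 5 of 6 fits, with adjusted p from 0.0625 to 0.111, the exception being the fit without replicate 2 of 4 months at 0.0240. *Gm20412*, a transcript on the opposite strand within the gene, had 192 to 214 RPKM at PND2 and 230 to 323 RPKM at 4 months, and the reads of the 2 cannot be told apart.

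*F13a1* encodes the catalytic A subunit of coagulation factor XIII, which stabilizes fibrin clots and is made by megakaryocytes and by macrophages of tissues. It had 25.8, 19.4 and 23.3 RPKM at PND2 and 64.2, 60.4 and 52.7 RPKM at 4 months. Each adult library had more than every neonatal one. The log2 fold change was 1.37 (SE 0.13, 95% interval 1.06 to 1.69, limma adjusted p = 0.000435), and leaving out 1 library gave 1.26 to 1.47.

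Markers of the cells known to make factor XIII were summed beside it. The 10 macrophage genes came to 243 to 368 RPKM at PND2 and 500 to 628 RPKM at 4 months. Of these 7 were called higher and none lower, against 14.7% of all genes called higher. For 4 monocyte genes the sum was 4.15 to 9.53 RPKM and 13.4 to 14.1 RPKM, with 2 called higher and 1 lower. The 8 platelet and megakaryocyte genes gave 77.3 to 81.7 RPKM at PND2 and 68.3 to 88.9 RPKM at 4 months, and none of the 7 tested was called. Most of this sum was *Pf4*, at 50.1 to 65.9 RPKM, and *Gp1bb*, at 12.9 to 21.4 RPKM, while *Gp6*, a platelet collagen receptor, was under 0.1 RPKM in every library. *F13a1* was 7.02 to 7.97% of the macrophage sum at PND2 and 9.03 to 12.1% at 4 months. Against the platelet and megakaryocyte sum it was 24.0 to 33.4% at PND2 and 62.7 to 88.3% at 4 months. These ratios were chosen after the values were seen and are given without a test. The part of macrophage, monocyte or platelet number in the *F13a1* difference was not tested.

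The annotation gives *F13a1* 2 first exons, and the regions in front of both are shown since the exon values separate them. The farther one, of 50 bases at chr13:37050195-37050244, had 1 read over all 6 libraries. The nearer one, of 73 bases at chr13:37049141-37049213, had 36, 22 and 37 reads at PND2 and 137, 83 and 80 reads at 4 months. In both ages, then, reads lay almost entirely on the nearer first exon, and 0 reads on the farther exon allow up to 2.52 RPKM at this length in the shallowest library, counting error only. The 250 bases in front of each first exon are those of RefSeq (GRCm38.p6), 5′ to 3′ on the minus strand, at chr13:37050245-37050494 and chr13:37049214-37049463, with capitals for matches to any motif searched.
F13a1 farther start: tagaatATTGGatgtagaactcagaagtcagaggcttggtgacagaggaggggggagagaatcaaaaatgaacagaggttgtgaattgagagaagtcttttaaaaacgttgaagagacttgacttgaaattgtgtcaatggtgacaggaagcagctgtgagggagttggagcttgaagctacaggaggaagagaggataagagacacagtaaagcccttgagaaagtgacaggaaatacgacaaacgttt
F13a1 nearer start: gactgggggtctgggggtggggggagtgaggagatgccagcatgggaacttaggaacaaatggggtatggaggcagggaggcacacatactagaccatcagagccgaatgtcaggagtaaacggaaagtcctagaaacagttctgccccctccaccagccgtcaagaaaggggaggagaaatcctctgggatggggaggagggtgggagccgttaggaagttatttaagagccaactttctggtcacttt
The motif TATAAA of the TATA box was searched on both strands, as were GGGCGG, the core of the GC box, and the letters CCAAT. No matches overlapped. A CCAAT match on the reverse strand was found in front of the farther start and no match in front of the nearer start. In 32851 promoters of the same length, 12.4% held TATAAA, 32.7% GGGCGG and 33.8% CCAAT on either strand. A promoter sequence was also matched for *Loxl4*, and thus for 2 of 7 members.

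Summed over the 5 lysyl oxidases, expression was 683, 882 and 710 RPKM at PND2 and 351, 289 and 380 RPKM at 4 months. The sum was lower in every adult library than in any neonatal one, with means of 759 ± 108 and 340 ± 46.5 RPKM, 2.23-fold lower at 4 months. An exact permutation test (2-sided) gave p = 0.1, below which 3 against 3 libraries cannot go.

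Within that sum *Lox* held 43.2, 33.4 and 34.5% at PND2 and 16.9, 15.7 and 13.9% at 4 months. *Loxl1* held 23.8, 31.1 and 34.2% at PND2 and 58.8, 51.2 and 50.5% at 4 months. On whole-gene RPKM *Loxl1* was thus the leading lysyl oxidase in each adult library. *Lox* led in the neonatal ones, by under 1 percentage point in replicates 2 and 3, but this neonatal order depended on the length used. On each of the 5 exon lengths that the 2 genes share, mean RPKM at PND2 was higher for *Loxl1*. It was 699 against 555 RPKM for *Lox* at 116 bases and 510 against 491 RPKM at 157 bases. *Loxl2* held 30.3, 33.3 and 28.9% at PND2 and 15.1, 24.2 and 25.8% at 4 months. *Loxl3* went from a mean of 2.29% to 8.50%, and *Loxl4* from 0.122% to 0.802%. None of the 5 shares overlapped between the ages, and each gave p = 0.1 in the exact permutation test (2-sided) and 0.1 after adjustment over the 5 shares. A share does not depend on how libraries are scaled to each other, but the 5 shares of a library sum to a fixed total and are not independent.

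**Figure D2:**
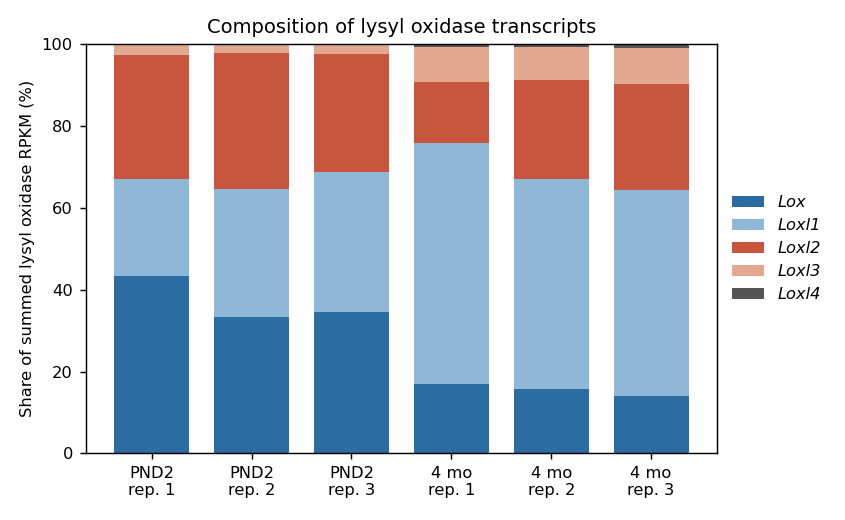
Share of the summed lysyl oxidase RPKM (%) held by each of the 5 genes, with 1 stacked bar per library. *Lox* and *Loxl2* together hold a mean of 67.9% at PND2 and 37.2% at 4 months, and *Loxl1* is the widest segment in every 4-month library.

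Whether members changed by different amounts was tested on the log2 ratio of each pair within a library. In 18 of 21 pairs the ratios of the ages did not overlap, with p = 0.1 in the exact permutation test and 0.117 after adjustment over the 21 pairs, so that no pair could pass 0.05. The 21 ratios come from 7 genes and are not independent. The share among other pairs of genes was not computed, and 50.0% of all single genes tested did not overlap. The difference in log2 ratio between the ages was -2.11 (SE 0.27) for *Lox* to *Loxl1*, with the ratio lower at 4 months. For *Loxl1* to *Loxl2* it was 1.41 (SE 0.36), and for *Tgm2* to *F13a1* it was -0.94 (SE 0.20). Ratios overlapped for *Lox* to *Loxl2* (-0.70, SE 0.35, exact permutation p = 0.2), for *Loxl3* to *Tgm2* (0.30, SE 0.18, exact permutation p = 0.3) and for *Loxl4* to *F13a1* (0.11, SE 0.49, exact permutation p = 0.8). With a pseudocount of 1 in place of 0.1, 16 pairs did not overlap.

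The exon values followed the gene values for most members. Exon entries of the annotation overlap or repeat each other and are not independent. Over all exons tested 23.1% were called, 14.2% lower and 8.96% higher, and 42.6% did not overlap between the ages. For *Lox* 9 of 10 exon entries were called lower, and the other, of 37 bases, had a mean of 0.693 RPKM at PND2 and 1.34 RPKM at 4 months. The exon of *Lox* with the largest fall was that of 116 bases, at 555 ± 88.9 RPKM at PND2 and 87.7 ± 8.98 RPKM at 4 months. *Loxl2* had 15 of 15 exon entries called lower, with log2 fold changes from -1.81 to -1.38. *F13a1* had 15 of 15 called higher, from 1.24 to 1.79. None of the 7 exon entries of *Loxl1* was called, and their log2 fold changes lay between -0.35 and -0.21.

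Fewer exons passed the test in the other 3 genes. For *Tgm2* 1 of 24 was called higher, an entry of 48 bases, although the ratios of all 24 lay between 1.28 and 1.43. *Loxl4* had 4 of 21 called higher at means of a few RPKM. *Loxl3* had 13 of 22 called higher, and its exons were not alike. Of overlapping entries the longest was used, and exons toward the 5′ end with a low mean RPKM were left out. The 10 exons kept toward the 5′ end had 15.3, 17.5 and 13.1 RPKM at PND2 and 31.2, 23.1 and 36.7 RPKM at 4 months, 1.98-fold higher. The 2 exons before the last had 39.2, 35.7 and 33.8 RPKM at PND2 and 57.1, 46.7 and 58.0 RPKM at 4 months, 1.49-fold higher. The ratio of the 3′ to the 5′ exons was thus 2.56, 2.04 and 2.57 at PND2 and 1.83, 2.02 and 1.58 at 4 months, a split of the exons chosen after their values were seen and given without a test. *Htra2* overlaps the last exon of *Loxl3*, which is in neither block.

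**Figure D3:**
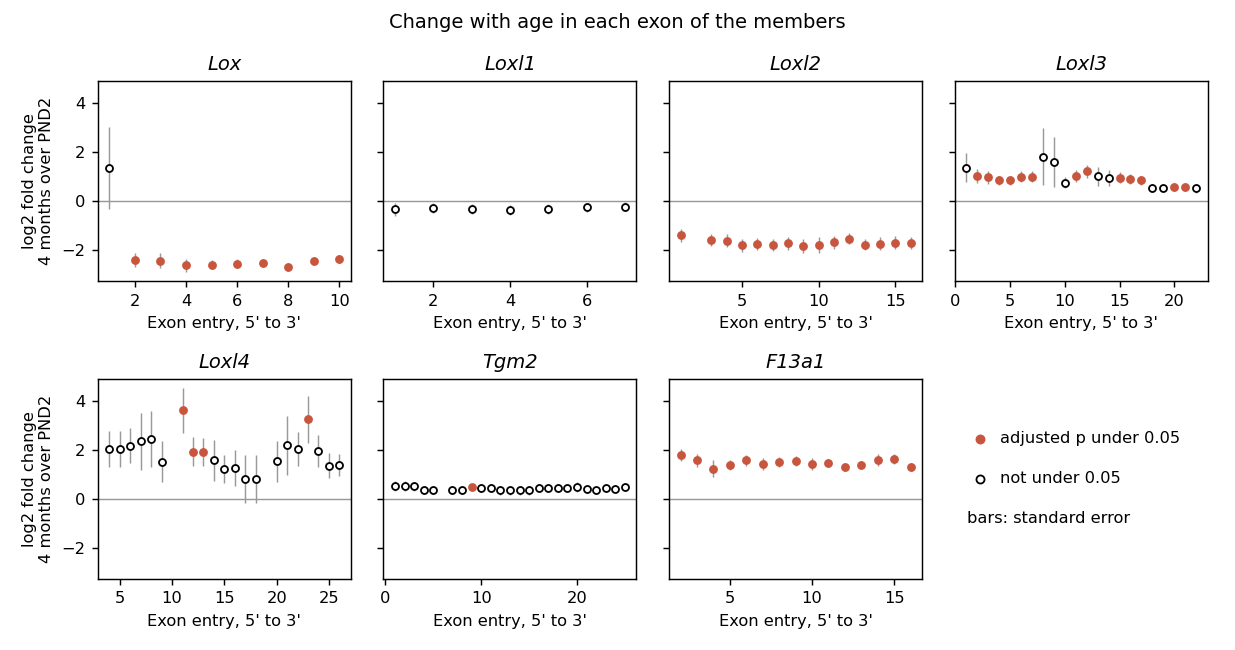
Log2 fold change (4 months over PND2) of each tested exon entry of the 7 members, numbered from the 5′ end, with the standard error as a bar and filled points for an adjusted p under 0.05. Exon entries of *Loxl2* lie between -1.81 and -1.38 and those of *F13a1* between 1.24 and 1.79, while those of *Loxl1* stay between -0.35 and -0.21.

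Transcripts of the proteins that lysyl oxidases act on were measured beside them. All 8 substrate genes of the list were called lower, against 21.1% of all genes. Their median log2 fold change was -1.01, against -0.14 for all genes. The list does not hold every collagen chain, and the paper lists *Col4a3* and *Col4a6*, which are not in it, as upregulated at 4 months. *Eln*, which encodes elastin, had 5521, 10103 and 7153 RPKM at PND2 and 725, 490 and 492 RPKM at 4 months, a log2 fold change of -3.72 (SE 0.27, limma adjusted p = 0.000145). *Col1a1*, a chain of collagen I, had 770, 1133 and 964 RPKM at PND2 and 524, 432 and 615 RPKM at 4 months, a log2 fold change of -0.86 (SE 0.19, limma adjusted p = 0.0119). *Col5a1* and *Col5a2* of collagen V were at -1.35 each, *Col4a1* and *Col4a2* of collagen IV at -1.03 and -0.99, and *Col3a1* at -0.77. *Col1a2* was at -0.56, with a call that was lost in 5 of the 6 fits with 1 library left out.

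Set against elastin and collagen I within a library, *Lox* moved in opposite directions. The log2 ratio of *Lox* to *Eln* was -4.22, -5.10 and -4.87 at PND2 and -3.61, -3.43 and -3.21 at 4 months, higher by 1.31 (SE 0.29). The log2 ratio of *Lox* to *Col1a1* was -1.38, -1.94 and -1.97 at PND2 and -3.14, -3.25 and -3.54 at 4 months, a difference of -1.54 (SE 0.23). *Lox* transcripts were thus more plentiful relative to elastin and less plentiful relative to collagen I in the adult valve. For the sum of the 5 lysyl oxidases the differences were 2.56 (SE 0.24) relative to *Eln* and -0.29 (SE 0.09) relative to *Col1a1*. None of these 4 ratios overlapped between the ages, and each had p = 0.1 in the exact permutation test (2-sided), the smallest possible.

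Of 9 genes of elastic fiber assembly, 4 were called lower and 2 higher, with a median log2 fold change of -0.21. *Fbn2*, a fibrillin of developing microfibrils, had 85.1, 129 and 90.2 RPKM at PND2 and 0.271, 1.83 and 0.679 RPKM at 4 months (log2 fold change -6.92, SE 0.54). *Mfap2* (-3.23), *Fbn1* (-1.11) and *Fbln5* (-0.79), which encodes the fibulin that binds LOXL1, were lower too. *Ltbp4*, which assists the deposition of fibulin-5, rose by 0.78 and *Mfap5*, a microfibril protein, by 0.72 on the log2 scale. *Efemp2*, whose product fibulin-4 brings LOX to tropoelastin, was at 65.1 ± 12.9 RPKM at PND2 and 78.4 ± 10.3 RPKM at 4 months and was not called.

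The list of propeptide proteases and matrix scaffolds had 9 genes tested, of which 5 were called lower and 2 higher (median -0.50). *Bmp1*, the protease that releases the LOX propeptide, was at 141 ± 13.3 RPKM at PND2 and 106 ± 11.1 RPKM at 4 months, with a log2 fold change of -0.41 (SE 0.12, limma adjusted p = 0.0303) that lost its call in 4 of 6 fits with 1 library left out. *Tll1*, a related protease, was at -1.04 and lost its call in 4 of these fits as well. *Fn1* (fibronectin) and *Postn* (periostin), scaffolds on which BMP1 meets its targets, were at -1.48 and -0.97. *Pcolce*, an enhancer of procollagen cleavage, was higher (0.68), and so was *Fmod*, a collagen-binding proteoglycan (1.12), whose call was lost in 3 of the 6 fits.

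Copper reaches lysyl oxidases through transporters of the cell membrane and the Golgi. Of 6 genes of copper transporters and of copper chaperones of the cytosol, 2 were called lower and none higher (median -0.45). *Slc31a1*, the copper importer, had 28.8, 28.1 and 29.6 RPKM at PND2 and 11.1, 13.4 and 11.5 RPKM at 4 months (log2 fold change -1.27, SE 0.11). *Atp7a*, the pump that loads copper onto secreted enzymes, was at 5.80 ± 0.257 RPKM at PND2 and 3.39 ± 0.615 RPKM at 4 months, and its call was lost without replicate 2 of PND2. *Atox1* and *Ccs*, copper chaperones of the cytosol, were not called. Among the 3 lysine hydroxylases, whose hydroxylysine steers the type of cross-link, *Plod1* was lower (-0.82) and *Plod2* (-0.34) and *Plod3* (-0.09) were not called.

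No other transglutaminase came near the levels of *Tgm2* and *F13a1*. *Tgm4* had 2.74 ± 0.361 RPKM at PND2 and 2.68 ± 0.280 RPKM at 4 months, and *Tgm1* 0.310 ± 0.0789 and 0.414 ± 0.181 RPKM. Neither was called. *Tgm3*, *Tgm5*, *Tgm6* and *F13b*, the carrier subunit of factor XIII, were under 0.1 RPKM in all libraries, *Tgm6* at 0 in each, which allows up to 3 reads per library, counting error only. *Tgm7* and *Epb42* were too low to be tested. Among the transglutaminase substrates and partners 3 of 6 tested were called higher and 1 lower (median 0.56). *Vtn* (vitronectin, 3.03), *Anxa1* (annexin A1, 1.26) and *Sdc4*, a proteoglycan that binds *Tgm2* protein (1.03), rose, and *Fn1* fell. The fibrinogen chains *Fga*, *Fgb* and *Fgg*, the clot substrate of factor XIII, were under 0.1 RPKM in every library.

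Among other amine oxidases, *Aoc3*, found in smooth muscle, endothelium and fat, had 50.1, 65.0 and 56.3 RPKM at PND2 and 117, 105 and 88.6 RPKM at 4 months (log2 fold change 0.86, SE 0.14). *Aoc2*, with means of 4.30 RPKM at PND2 and 5.04 RPKM at 4 months, was not called. *Pxdn*, the peroxidase that forms the sulfilimine bond of collagen IV, had 94.9, 114 and 111 RPKM at PND2 and 28.6, 30.9 and 26.6 RPKM at 4 months (-1.89, SE 0.11). The ages did not overlap in *Aoc3*, *Aoc2* or *Pxdn*, which held for 50.0% of all genes tested. Together the 8 pathway lists other than the members held 29 called genes of 45 tested, against 35.8% of all genes, and nothing particular to the lists is read from this count.

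**Figure D4:**
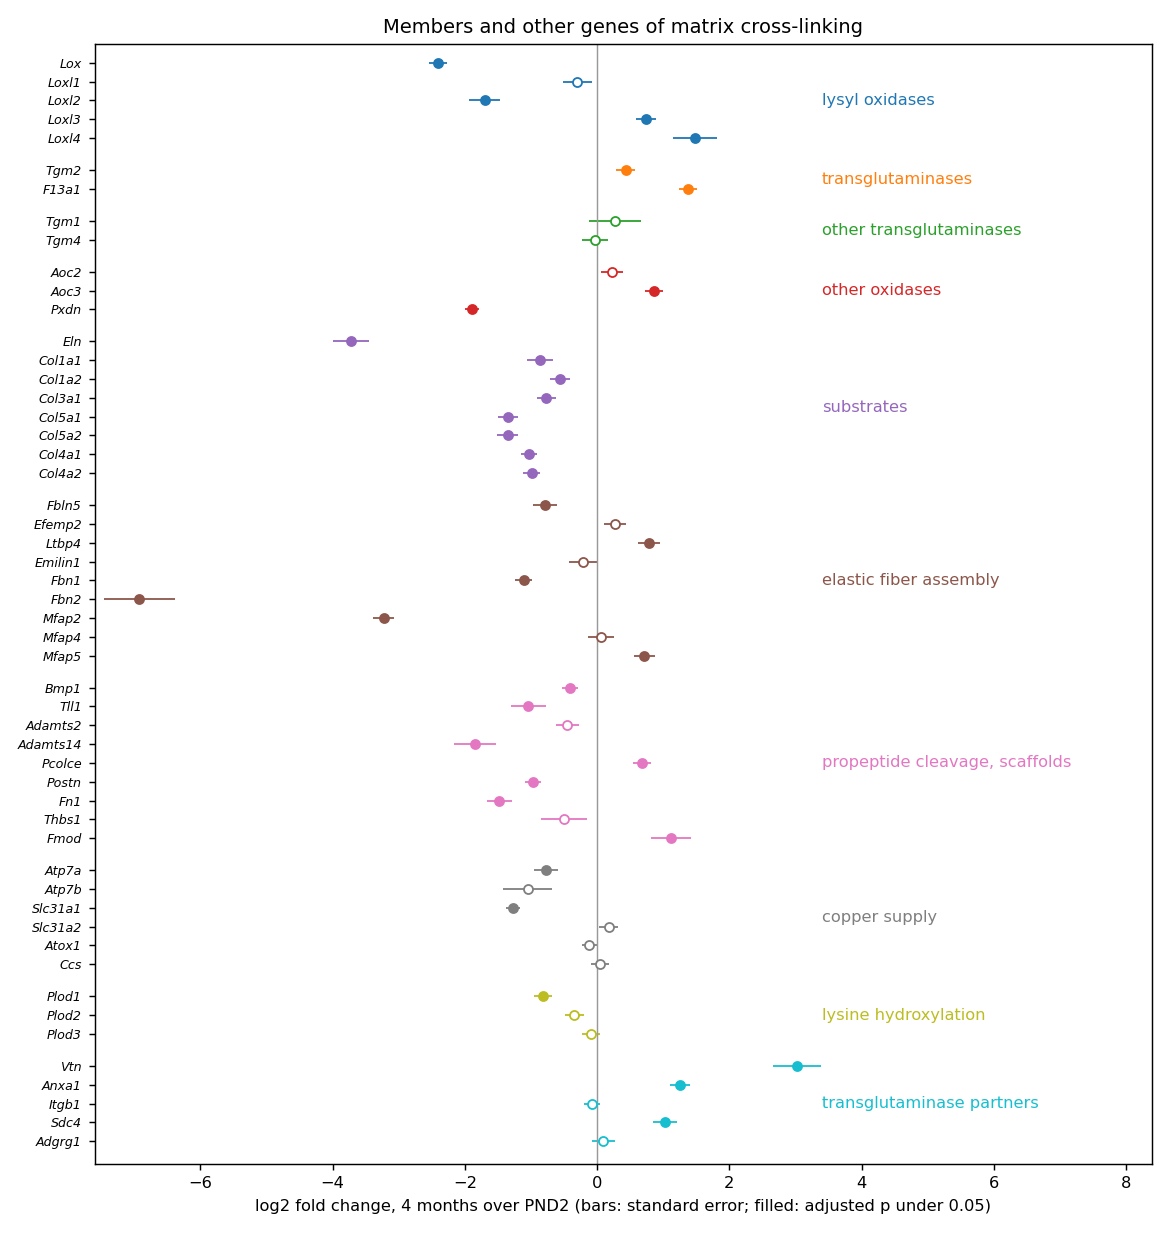
Log2 fold change (4 months over PND2) of the members and of the tested genes of the pathway lists, with the standard error as a bar, filled points for an adjusted p under 0.05 and 1 color per list. All 8 substrate genes of the list lie below 0, from *Eln* at -3.72 to *Col1a2* at -0.56, while the lysyl oxidases spread from -2.41 to 1.48.

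Marker sums of endothelium and valve mesenchyme moved with age as well. The 8 endothelial genes summed to 451 to 634 RPKM at PND2 and 258 to 274 RPKM at 4 months, with 7 called lower. The 8 genes of valve mesenchyme summed to 2805 to 3022 RPKM at PND2 and 5989 to 7779 RPKM at 4 months, with 3 called higher (*Dcn*, *Lum* and *Prrx1*), 1 lower (*Scx*) and 4 not called. The parts of these cell types in the member differences were not tested.

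For each member the 3 protein-coding genes with the most similar profile were found by Pearson's r of log2(RPKM + 0.1) over the 6 libraries, among 10613 genes with a mean of at least 5 RPKM, as a description. They were *Lrrc42*, *Igf2bp3* and *Pcbp2* for *Lox*, *Trim41*, *Mbd6* and *Btbd2* for *Loxl1*, and *Coa3*, *Tnc* and *Tctn3* for *Loxl2*. For *Loxl3* they were *Flot1*, *Capg* and *Rhbdf2*, and for *Loxl4* *Dram1*, *Aida* and *Ildr2*. *Gm27021*, *Fbxw2* and *Fbxl12* were nearest to *Tgm2*, and *Phyhipl*, *Sqrdl* and *Slc8b1* to *F13a1*. With 6 libraries in 2 ages such values of r are high for many genes, and 2034 genes had r over 0.9 with *Lox* against 373 with *Loxl1*.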

How the data were processed

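RNA of aortic valves from 3 PND2 and 3 4-month pools was sequenced. The authors trimmed paired reads, aligned them to mm10 (TopHat2 2.1.0 and R 3.2.2, per the submitters' processing notes), used easyRNASeq for counts per Ensembl gene and exon, and deposited RPKM values for 46983 genes and 448141 exons. The study's floor at 10 reads is not in these values, since 32408 stand for 1 to 10 reads. Whether totals count reads or pairs is not stated in the sources used here. All totals except the lowest were above the mean number of read pairs per sample that the paper gives. Of the columns, 0 belonged to other samples.

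Genes with at least 0.1 RPKM (exons 1 RPKM) in 3 libraries were fitted with limma 3.58.1 (R 4.3.3, with the package data.table, version 1.17.8), lmFit and eBayes with a trend, on log2(RPKM + 0.1). The fit was tested on simulated data. Sums, shares and ratios were compared by exact permutation tests in scipy 1.17.1 (Python 3.11.15, numpy 2.4.6, pandas 2.3.3, matplotlib 3.10.9). Whole reads were taken within 0.01 of an integer. All members, genes of the pathway lists, summed marker lists and the 3 genes most like each member were named, *Gm27177*, *Gm20412* and *Htra2* as overlapping genes. The members and lists were chosen with earlier results of these data known. The alternatives tried were other pseudocounts, filters and scalings, no trend, an unequal-variance test per gene, the study's floor, voom, a replicate block and each library left out. *Ltbp4* has 2 annotated entries, of which the longer was used. Erythroid and Schwann cell markers were also summed: 921 to 1294 and 11.3 to 28.7 RPKM at PND2, and 371 to 1087 and 41.2 to 48.8 RPKM at 4 months.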

Additional observations from a re-analysis of the deposited data

How the results depend on the processing

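No member changed direction under any alternative. The member count stayed at 5 or 6 under 10 of the 11 settings that kept all libraries. The exception was an unequal-variance test per gene, the kind of test the study used but run here on log2(RPKM + 0.1) without its read minimum and floor. It called 2 members and 3408 of 25903 genes, against 9273 with limma, and under it *Loxl2* (adjusted p = 0.0538), *Loxl3* (0.105), *Loxl4* (0.0978) and *Tgm2* (0.159) lost their calls. That test estimates each gene's spread from its own 6 libraries alone. The study, with its own read minimum and floor, lists *Loxl2* as downregulated at 4 months. With 1 library left out, 4 to 6 members, 6301 to 8581 genes, 25 to 30 pathway genes and 40 to 58 member exons were called, and the summed lysyl oxidase difference was -456 to -357 RPKM. *Tgm2* also lost its call with the floor at 10 reads (limma adjusted p = 0.0793), with no filter (0.0609) and with no trend (0.0928). *Lox* and *F13a1* kept theirs under every alternative. Voom on the recovered reads, whole for 100% of the gene values, called 9696 genes and 6 members.

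The replicate numbers did not pair the libraries: deviations from the age means correlated at 0.0439, -0.0608 and -0.160 for equal numbers. With a replicate block 5 members, 7167 genes, 25 pathway genes and 48 exons were called, *Tgm2* being the member lost (adjusted p = 0.0759).

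The 3 libraries per age limit exact tests to p = 0.1, pools hide animal-to-animal spread, and the reads of *Loxl4* limit its exon calls.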
